A study of Mus musculus with 12 samples.

Results

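Blood of mice kept in chronic hypoxia (CH) was compared with blood of mice kept in normoxia (NX) across all genes of an expression array. The comparison rests on 8 of the 12 arrays of the series, chosen by their titles, 4 of NX and 4 of CH. Each array holds the blood RNA of 1 C57Bl/10 mouse that was 3 months old. The NX mice breathed 21% oxygen for 14 days, and the CH mice were kept for 14 days in normobaric hypoxia in which the oxygen fraction was varied by day down to 8% at harvest. No transgene or drug is named for either group, and the sex of the mice is not given in the labels. One field of the labels describes the CH mice as normoxic, against their titles and their exposure text, and the titles were followed. The remaining group, REC, had 14 days of hypoxia and then 14 days at 21% oxygen. It entered the estimate of the spread between arrays and the choice of the brightest probe set of a gene, and no change below is measured against it.

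Low oxygen raises erythropoietin, the hormone that keeps red cell precursors alive, and the marrow then releases more reticulocytes, young red cells that have lost their nucleus but still hold RNA. Blood RNA is therefore a mixture of reticulocyte RNA, in which the messages of globin, heme and membrane proteins prevail, and of RNA from white cells and platelets. Reticulocytes clear their mitochondria by autophagy and remodel their proteins through ubiquitin enzymes before they become mature red cells. The integrated stress response, in which phosphorylated eIF2 favours translation of Atf4 and Atf5, is switched on in red cell precursors by the heme-regulated kinase Eif2ak1 and raises genes of amino acid synthesis and transport.

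A probe set is a group of short oligonucleotides that together report 1 transcript, and the array has 45101 of them. The deposited signals are linear, and their trimmed mean was 150 on each array. A log2 change below is the difference of the group means of log2(signal + 16), CH minus NX, which understates the change of dim transcripts. A probe set was called where limma gave an adjusted p under 0.05 (Benjamini-Hochberg over the whole array) and the groups differed by 2-fold or more. The hybridization controls, bacterial transcripts added in a fixed amount, had a mean log2 signal of 12.67 ± 0.44 in NX and 14.29 ± 0.25 in CH (SD, n = 4 each, exact two-sided permutation p = 0.0286, the smallest that 4 against 4 arrays allow). Actin probe sets at the 3′ end were brighter than those at the 5′ end, as happens where RNA is degraded, by a ratio of 1.71 ± 0.104 in NX and 1.996 ± 0.0941 in CH (SD, n = 4 each, exact permutation p = 0.0286). The same ratio for Gapdh was 2.07 ± 0.201 in NX and 2.29 ± 0.368 in CH (SD, n = 4 each, exact permutation p = 0.371), which did not pass, and the 18S ribosomal RNA probe sets had a signal of 2648 ± 691 in NX and 9760.5 ± 2024 in CH (SD, n = 4 each, exact permutation p = 0.0286). The part of these measures in the results was not tested. With each array scaled on these controls the median change over the whole array went from 0.11 to -0.71 on the log2 scale, so counts under that scaling are given beside the lists. NX replicate 1 and CH replicates 1 and 2 stood apart in that their dim probe sets were brighter. The median signal of the 9160 probe sets that name no gene was 52.6, 24.9, 28.3 and 29.4 in NX and 64.3, 55.6, 36.9 and 25.4 in CH. Counts of a list without these 3 arrays, under quantile normalization or with 1 array left out are given where they differ by over 1.5 times. Each array was scaled as a whole, so a signal is a share of the RNA of a sample. Fewer cells of a type, less RNA per cell and more RNA from other cells therefore cannot be told apart.

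In CH, 3628 probe sets were higher and 6282 lower than in NX, which is 8.04% and 13.9% of all probe sets. The increases were fewer and larger. A rise of at least 4-fold was seen in 1067 probe sets and a fall of that size in 701, and beyond 8-fold there were 304 higher and 9 lower. All 4 CH arrays lay above all 4 NX arrays in 4613 probe sets (10.2%) and below them in 7137 (15.8%). Without the 3 arrays that stood apart, 3674 probe sets were higher and 5759 lower, of which 2797 and 4586 were among the calls from all arrays. Under the hybridization control scaling, 555 of the higher and all 6282 of the lower calls remained, and 17480 probe sets were lower in all. This scaling moved the changes downward, so it could hardly remove a lower call and does not test the decreases. Under quantile normalization 2704 of the higher and 4948 of the lower calls remained. Taken as 1 probe set for each of 18194 genes, 1651 genes (9.07%) were higher and 3549 (19.5%) lower, with a median log2 change of 0.05. These shares are the background against which the lists are read, but the share of calls depended on brightness. Of the 9020 brightest probe sets 1749 were higher and 3600 lower, with a median log2 change of -0.70. Of the 9021 dimmest probe sets 215 were higher and 3 lower, with a median of 0.25. A list of bright genes can therefore exceed the shares over all genes without differing from other bright genes. Whether a list differs from genes of like brightness was not tested.

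**Figure D1:**
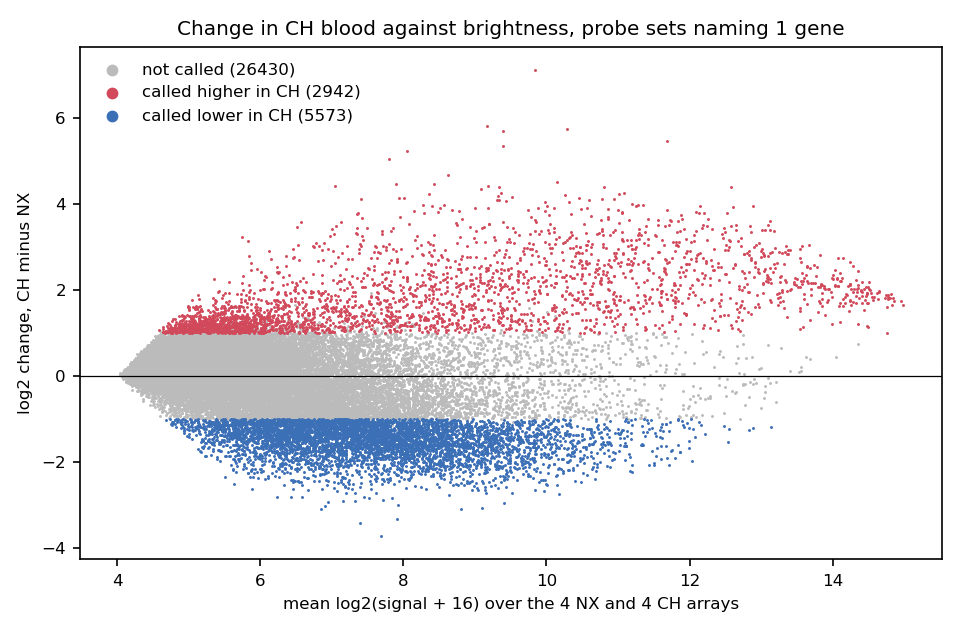
Log2 change, CH minus NX, of every probe set that names 1 gene against its mean log2(signal + 16) over the 8 arrays, with 1 point per probe set. Of these, 2942 are called higher (red) and 5573 lower (blue), and the brightest probe sets lie almost all above 0. The mean includes the CH arrays, which in part favours rises at the bright end.

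The brightest transcripts moved together. Of the 100 single-gene probe sets with the highest mean level, 98 were called higher and 0 lower, with a median log2 change of 1.92. The mean level includes the CH arrays, so a rise in CH helps a probe set into the 100 and a fall keeps it out. The split between higher and lower is therefore fixed in part by the choice. Under quantile normalization, which gives every array the same distribution of signals, 0 of the 100 were higher and 1 lower, with a median of 0.11. Under the hybridization control scaling 3 were higher and 1 lower, with a median of 0.30. The 100 brightest probe sets of each array held 12.2% ± 1.69 of its summed signal in NX and 21.0% ± 1.01 in CH (SD, n = 4 each, exact permutation p = 0.0286). For the brightest genes the size of a change therefore depends on the scaling, and for the bright genes named below that lost their call under one of these scalings both values are given.

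The 4 named genes with the largest increases were Atf5, Asns, Mthfd2 and Mpst. The genes that changed most were taken only from probe sets without overlap between the groups, which fixed their lack of overlap. Atf5, a transcription factor translated during the integrated stress response, had signals of 44.6, 73.5, 65.2 and 69.2 in NX and 10382, 8153, 7762 and 20234 in CH. The lowest CH mouse was above the highest NX mouse by a wide margin, and there was a change of 7.10 on the log2 scale (standard error 0.30, adjusted p = 2.61e-08). Asns, the enzyme that makes asparagine and a target of Atf4, had 78.1, 96.5, 57.3 and 83.0 in NX and 4880.0, 4955, 1712 and 12809 in CH, and Mthfd2, a mitochondrial enzyme of folate metabolism, had 393, 629, 485 and 437 in NX and 13419, 20924, 21740.1 and 36917 in CH. For Asns CH replicate 3 was the lowest CH mouse and CH replicate 4 the highest. The log2 changes of Asns and Mthfd2 were 5.69 (standard error 0.43, adjusted p = 1.74e-06) and 5.46 (standard error 0.29, adjusted p = 3.08e-07). Mpst, a sulfurtransferase of cysteine breakdown, had 35.6, 188, 117 and 74.1 in NX and 3962, 3982, 3602 and 5896 in CH and a change of 5.34 on the log2 scale (standard error 0.35, adjusted p = 7.44e-07). Under the hybridization control scaling these genes stayed higher, at 5.53 for Atf5, 4.12 for Asns, 3.85 for Mthfd2 and 3.75 for Mpst.

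Of the enzymes of serine, proline and one-carbon metabolism, 4 were higher and 2 lower among 16 measured members, with a median log2 change of 0.20 (-0.21 without the 3 arrays that stood apart and -1.09 with 4 higher and 9 lower under the hybridization control scaling). The 4 that rose were Asns, Mthfd2, Mpst and Shmt2, the mitochondrial serine hydroxymethyltransferase, at 2.81, and all 4 were still called under the hybridization control scaling. The 2 that fell were Got1, the cytosolic aspartate aminotransferase, at -1.28, and Mthfd1, the cytosolic partner enzyme of Mthfd2, at -1.45. The other 10 of the 16 measured members were not called, so no pattern by compartment is drawn from the folate enzymes named here. Without the 3 arrays that stood apart 1 of the 2 that fell kept its call, Mthfd1. Pycr1, which makes proline from pyrroline-5-carboxylate, is measured by a probe set that the annotation leaves unnamed but that a supplementary list of the study gives under this gene. It had 21.1, 22.3, 27.6 and 10.8 in NX and 750.0, 655, 807 and 1382 in CH, without overlap, and a change of 4.61 on the log2 scale (standard error 0.29, adjusted p = 5.86e-07).

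Among the factors of the integrated stress response itself, 7 were higher and 5 lower among 21 measured members, with a median of 0.31 (-1.04 with 3 higher and 9 lower under the hybridization control scaling). Ppp1r15a, the phosphatase subunit that ends the response, had 166, 275, 203 and 234 in NX and 1701, 1666, 1087 and 2687 in CH, and Eif2ak1, the heme-regulated eIF2 kinase, had 241, 472, 336 and 362 in NX and 1991, 3039, 1651 and 3599 in CH. The groups did not overlap for either, at log2 changes of 2.88 (standard error 0.30) and 2.78 (standard error 0.29). Trib3, a pseudokinase induced by Atf4, rose by 2.02, Atf4 itself by 1.83 (0.88 under quantile normalization and 0.23 under the hybridization control scaling, called under neither) and Nupr1, a stress-induced chromatin protein, by 1.74. Of the 7 higher members, 3 kept that call under the hybridization control scaling, namely Atf5, Ppp1r15a and Eif2ak1. The other eIF2 kinases went otherwise. Eif2ak3 and Eif2ak4, which respond to stress in the endoplasmic reticulum and to lack of amino acids, were lower at their brightest probe sets (-1.52 and -1.16), and both calls were lost without the 3 arrays that stood apart. Another probe set of Eif2ak3 was higher, and the call of Eif2ak4 was also lost without NX replicate 3. Ddit4, an inhibitor of mTORC1, was lower at -2.67. Its signals were 3700.1, 1445, 1773 and 4250.1 in NX and 279, 293, 794 and 323 in CH. Atf3, another factor of the response, had a log2 change of -0.93 and Chac1, which breaks down glutathione, of -0.46, and neither was called. Of the 5 lower members 3 kept their call without the 3 arrays.

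Amino acid transporters split into members that rose sharply and members that fell. Of 18 measured, 5 were higher and 6 lower, with a median of -0.21 (0.02 under quantile normalization and -1.55 with 5 higher and 11 lower under the hybridization control scaling). Slc7a5, the large neutral amino acid exchanger, had 1434, 1965, 1612 and 2872 in NX and 22249.6, 29858, 27244 and 43482 in CH, and its heavy chain Slc3a2 had 394, 670.3, 609.5 and 577 in NX and 6331, 8499, 5910.2 and 12559 in CH. The groups did not overlap for either, with log2 changes of 3.96 and 3.81. Slc6a9, the glycine transporter that feeds heme synthesis, rose by 4.17 (standard error 0.35, adjusted p = 3.19e-06), Slc16a10, a carrier of aromatic amino acids, by 4.10, and Slc38a5, a glutamine carrier, by 3.17. All 5 were still higher under the hybridization control scaling. The lower ones were led by Slc38a1, another glutamine carrier, at -2.04. Without the 3 arrays that stood apart, 3 of the 6 lower members kept their call.

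Of the aminoacyl-tRNA synthetases, which charge tRNAs and many of which Atf4 controls, 2 were higher and 6 lower among 18 measured members. Over all genes 9.07% were higher and 19.5% lower. The median of the synthetases was -0.53 (-1.83 with 0 higher and 15 lower under the hybridization control scaling). Aars, the alanine enzyme, had 80.9, 122, 113 and 109.8 in NX and 448, 523, 328 and 1276 in CH, and Sars, the serine enzyme, rose by 2.02. These were the higher members, and neither kept its call under the hybridization control scaling (0.72 and 0.43). Rars, the arginine enzyme, had 296, 351, 419.7 and 290.4 in NX and 57, 68.9, 153 and 87.7 in CH and a change of -1.79 on the log2 scale (standard error 0.28, adjusted p = 0.000343). Wars, the tryptophan enzyme, was called at -1.01 (adjusted p = 0.043), a call lost without NX replicate 2, 3 or 4 or CH replicate 1 or 2, and without the 3 arrays that stood apart.

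**Figure D2:**
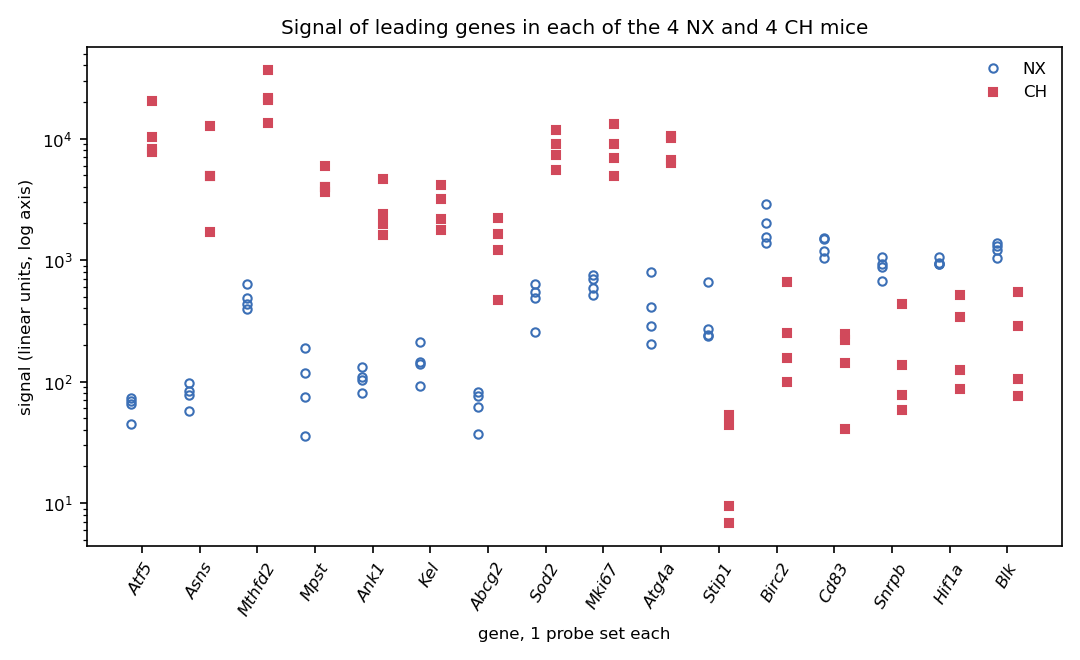
Signal of 16 genes, 1 probe set each, in the 4 NX mice (open circles) and the 4 CH mice (filled squares), on a log axis. The groups do not overlap for any of them, and Atf5 has the widest gap, from at most 73.5 in NX to at least 7762 in CH. Several were drawn only from probe sets without overlap, which fixed this for them. Of all probe sets, 10.2% had all CH arrays above all NX arrays and 15.8% had them below.

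Since Atf4 and its partners bind a known element, and Gata1 and Klf1 bind known elements in red cell genes, RefSeq promoters (build GRCm38.p6) were searched for these 3 motifs. The 250 bases upstream of each start were read on both strands, and a gene with several starts counts once for each. The core of the C/EBP-ATF response element, TGATGNAA, was found in 1134 of 32851 promoters (3.45%) of all genes, in 429 of 18009 promoters (2.38%) of measured genes, in 42 of 1679 promoters (2.50%) of genes called higher and in 66 of 3758 promoters (1.76%) of genes called lower. Among the measured stress response factors 5 of 22 promoters (22.7%) held it, and among the measured serine, proline and one-carbon enzymes 2 of 18 promoters (11.1%). A match is a run of letters and not a site known to be bound. The windows are printed because they set genes that share the element and rose beside genes that share it and did not. They are not the full set, as Fgf21, Slc7a11, Slc7a7 and Vldlr also held a match and are not printed. The match is in capitals and each line reads 5′ to 3′ on the strand of the gene, so TTGCATCA is the element on the other strand. Asns lies on the minus strand at chr6:7693210-7693262, Pycr1 on the minus strand at chr11:120643814-120643881 and Nupr1 on the minus strand at chr7:126625543-126625610, all of which rose. Got1 lies on the minus strand at chr19:43524670-43524737 and fell, and Atf3 on the minus strand at chr1:191183406-191183473 and Chac1 on the plus strand at chr2:119351019-119351086 were not called.
Asns: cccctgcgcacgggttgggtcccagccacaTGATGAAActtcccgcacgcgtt
Pycr1: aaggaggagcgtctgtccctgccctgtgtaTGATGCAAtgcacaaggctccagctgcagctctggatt
Nupr1: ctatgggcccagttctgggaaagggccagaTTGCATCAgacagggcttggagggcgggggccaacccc
Got1: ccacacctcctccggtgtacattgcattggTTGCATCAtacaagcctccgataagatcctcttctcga
Atf3: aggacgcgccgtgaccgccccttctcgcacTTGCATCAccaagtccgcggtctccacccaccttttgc
Chac1: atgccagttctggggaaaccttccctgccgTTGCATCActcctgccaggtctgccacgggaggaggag

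For Atf5, Mthfd2, Mpst and Slc3a2, among the genes with the largest increases, these letters were not in the window searched. A GATA site, AGATAA, the motif of Gata1, was found in 3281 of 32851 promoters (9.99%) of all genes, 1331 of 18009 promoters (7.39%) of measured genes, 111 of 1679 promoters (6.61%) of those called higher and 209 of 3758 promoters (5.56%) of those called lower. Among the red cell surface genes 4 of 18 promoters (22.2%) held it, among the membrane skeleton genes 2 of 13 promoters (15.4%) and among the heme genes 1 of 18 promoters (5.56%). The motif of Klf1, CCACACCC, was found in 1050 of 32851 promoters (3.20%) of all genes, 637 of 18009 promoters (3.54%) of measured genes, 75 of 1679 promoters (4.47%) of those called higher and 127 of 3758 promoters (3.38%) of those called lower. In these lists it was in 1 of 18 promoters (5.56%) of the surface genes, 0 of 13 promoters of the membrane skeleton genes and 0 of 18 promoters of the heme genes. The promoters of 6 red cell genes that were called higher are printed with their AGATAA match, beside 2 that were not called and 1 that fell. Kel lies on the minus strand at chr6:41704346-41704411, Rhd on the plus strand at chr4:134864463-134864528, Icam4 on the plus strand at chr9:21029359-21029424, Epb42 on the minus strand at chr2:121037068-121037127, Trim10 on the plus strand at chr17:36869381-36869446 and Alas2 on the plus strand at chrX:150547301-150547366. Epor lies on the minus strand at chr9:21963595-21963660 and Tal1, a factor that works with Gata1, on the plus strand at chr4:115056191-115056256, and neither was called, at log2 changes of 0.77 and -0.54. Zbtb7a, a repressor of fetal globin, lies on the plus strand at chr10:81136125-81136190 and fell, at -1.21 (-0.99 under quantile normalization and -2.54 under the hybridization control scaling, called under the latter). Other members with the match were Sox6 and Mpp1, which rose, Ldb1, which fell but lost its call under quantile normalization, and Cd44, which was not called. The site is in capitals, and TTATCT is the site on the other strand.
Kel: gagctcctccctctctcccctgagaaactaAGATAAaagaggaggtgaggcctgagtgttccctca
Rhd: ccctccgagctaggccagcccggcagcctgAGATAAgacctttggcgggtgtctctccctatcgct
Icam4: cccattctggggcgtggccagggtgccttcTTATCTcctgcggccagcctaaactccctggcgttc
Epb42: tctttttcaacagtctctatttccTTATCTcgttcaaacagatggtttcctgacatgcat
Trim10: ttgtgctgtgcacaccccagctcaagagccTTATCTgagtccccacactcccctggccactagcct
Alas2: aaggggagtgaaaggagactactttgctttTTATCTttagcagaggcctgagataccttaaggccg
Epor: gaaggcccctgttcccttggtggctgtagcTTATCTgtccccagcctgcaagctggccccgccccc
Tal1: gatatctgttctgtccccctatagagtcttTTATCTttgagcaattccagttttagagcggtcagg
Zbtb7a: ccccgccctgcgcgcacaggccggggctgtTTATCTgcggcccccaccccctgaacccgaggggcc

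Most genes of the red cell membrane rose in CH. In the membrane skeleton, 13 were higher and 1 lower among 15 measured members, with a median of 2.99 (1.39 with 9 higher and 2 lower under the hybridization control scaling). Ank1, the ankyrin that ties the skeleton to the membrane, had 80.4, 132, 103 and 109.5 in NX and 1593, 2393, 1983 and 4608 in CH, and Sptb, the β-spectrin, had 46.3, 179, 94.8 and 121 in NX and 1194, 1614, 1178 and 3108 in CH. Both were apart between the groups, with log2 changes of 4.34 (standard error 0.37, adjusted p = 3.33e-06) and 3.82 (standard error 0.43). Epb42, which binds ankyrin, rose by 4.2, with CH replicate 3 at 3598 and the other CH mice between 5815 and 6205. Add2, the β-adducin, rose at all 5 of its probe sets, by 5.04 at the one that changed most, where signals were 8.76, 32.9, 19.8 and 36.9 in NX and 982, 1313, 700.0 and 2817 in CH. The lower member was Add3, the γ-adducin of non-erythroid cells, with 1491, 1515, 1911 and 1701 in NX and 278, 162, 879 and 527 in CH and a log2 change of -2.06. Of the 13 higher members 10 kept the call under quantile normalization. Lower skeleton genes numbered 2 without NX replicate 1 or CH replicate 4 and 2 without the 3 arrays that stood apart.

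Of the surface and blood group proteins, 14 were higher and 0 lower among 17 measured members, with a median of 2.62 (2.41 with 12 higher and 1 lower under quantile normalization and 1.15 with 8 higher and 2 lower under the hybridization control scaling). Kel, the Kell blood group protease, had 91.8, 212, 139 and 146 in NX and 2169, 3158, 1775 and 4136 in CH, and Rhd, of the Rh complex, had 7.68, 49.4, 16.9 and 39.3 in NX and 499.5, 908, 433 and 1158 in CH. The groups were apart for both, at log2 changes of 4.09 (standard error 0.37, adjusted p = 5.28e-06) and 4.11 (standard error 0.38, adjusted p = 5.25e-06). Tfrc, the transferrin receptor that is lost as reticulocytes mature, had 854, 928, 961 and 676 in NX and 12564, 15103, 7101 and 17753 in CH and a log2 change of 3.85. Cd36, a fatty acid receptor carried by young red cells, had 184, 467, 298 and 209.6 in NX and 3325, 4572, 2811 and 4959.9 in CH and a change of 3.73 on the log2 scale (standard error 0.32, adjusted p = 3.38e-06), and was higher at all 3 of its probe sets. CH replicate 3 was the lowest CH mouse for each of these genes. Lower surface genes numbered 1 without NX replicate 1, 2 or 3 or CH replicate 1 and 1 without the 3 arrays that stood apart.

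Globin and heme genes rose less on this scale, and the brightest of them depended on the scaling. Of 6 measured globin genes 4 were higher and 0 lower, with a median of 1.55 (0.38 with 0 higher and 0 lower under the hybridization control scaling), and with Hbb-b2, an adult β-globin, at 4068, 3381, 3444 and 5101 in NX and 13035, 16361, 20456 and 33419 in CH. Its log2 change was 2.30, but 0.72 under quantile normalization and 0.69 under the hybridization control scaling, where no globin was called. Hbb-y, an embryonic β-like globin, rose by 2.28, with 74.9, 137, 101 and 116 in NX and 577, 755, 385 and 629 in CH, and by 2.62 under quantile normalization. Near-identical globin copies share sequence, so a probe set may read more than 1 of them, and the dim probe set of Hba-a1 gave 16.3, 1.16, 5.82 and 4.75 in NX and 12.5, 25.4, 16.2 and 5.35 in CH and was not called.

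Of the genes of heme synthesis and porphyrin transport, 13 were higher and 2 lower among 16 measured members, with a median of 1.95 (1.64 with 9 higher and 1 lower under quantile normalization and 0.34 with 5 higher and 2 lower under the hybridization control scaling). The largest changes were those of Abcg2, Cpox and Urod. Cpox, coproporphyrinogen oxidase, had 87.7, 71.6, 78.5 and 78.0 in NX and 1018, 1704, 1081 and 2068 in CH and a change of 3.90 on the log2 scale (standard error 0.26, adjusted p = 7.58e-07). Urod, uroporphyrinogen decarboxylase, had 923, 1836, 1152 and 1254 in NX and 14568, 18545, 15305 and 22991 in CH and a log2 change of 3.79, and Abcg2, a porphyrin exporter, rose by 3.96 (standard error 0.41). All 3 were still called under both scalings. Alas2, which starts heme synthesis in red cells, had 21408, 13711, 13652 and 22622 in NX and 47318, 56139, 57496 and 75319 in CH, and Fech, which inserts the iron, had 15615, 11874, 12030.1 and 18386 in NX and 42018, 51725, 50584 and 68659 in CH. Neither overlapped between groups, yet their log2 changes of 1.75 and 1.88 became 0.03 and 0.10 under quantile normalization and 0.13 and 0.27 under the hybridization control scaling. The members that fell were Flvcr1, a heme exporter, at -1.35 and Tmem14c, a mitochondrial porphyrin carrier, at -1.13, a call lost without NX replicate 2 or CH replicate 1 or 2. Lower heme genes numbered 1 without NX replicate 2 or CH replicate 1 or 2 and 1 without the 3 arrays that stood apart.

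Iron genes were mixed, as 6 were higher and 1 lower among 16 measured members, with a median of 0.75 (0.31 with 3 higher and 2 lower under quantile normalization and -0.49 with 2 higher and 5 lower under the hybridization control scaling). Glrx5, which builds iron-sulfur clusters in mitochondria, had 774, 1819, 1089 and 1219 in NX and 6730.1, 11721, 10295 and 13885 in CH and a change of 3.12 on the log2 scale (standard error 0.31, adjusted p = 9.8e-06), and its partners Hscb and Iscu rose by 2.83 and 2.60. Hscb was also called under both scalings, while Iscu stood at 0.89 under quantile normalization and 0.99 under the hybridization control scaling, called under neither. Ncoa4, which delivers ferritin to autophagosomes, rose by 2.11 (0.33 under quantile normalization and 0.49 under the hybridization control scaling, called under neither). Fth1, the ferritin heavy chain, rose by 1.66, but stood at -0.03 under quantile normalization and 0.04 under the hybridization control scaling, called under neither. Ireb2, which represses or stabilises messages according to iron, fell, with 492, 519, 586 and 474 in NX and 107, 55.0, 174 and 68.3 in CH and a log2 change of -2.29. Lower iron genes numbered 3 without CH replicate 1.

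Erythroid transcription factors and receptors moved in both directions, with 8 higher and 6 lower of 20 measured and a median of 0.37 (0.24 with 6 higher and 3 lower under quantile normalization and -0.66 with 4 higher and 9 lower under the hybridization control scaling). Gata1, the master factor of red cell development, had 341, 507, 344 and 562 in NX and 1989.6, 2506, 2208 and 3418 in CH and a change of 2.49 on the log2 scale (standard error 0.29, adjusted p = 2.92e-05), which was 2.31 under quantile normalization and 0.90 under the hybridization control scaling, called under the former. Klf1, which activates adult globin, rose by 2.73, Trim10 by 3.62 and E2f2, a cell cycle factor of late erythroblasts, by 2.94. Bcl11a, a repressor of embryonic and fetal globins that B cells also express, had 758, 763, 1077 and 716 in NX and 77.9, 88.6, 441 and 165 in CH and a log2 change of -2.30, and Myb, a factor of early precursors, had -1.32. Epor, the erythropoietin receptor, was dim at 1.89, 18.6, 12.1 and 25.8 in NX and 20.9, 47.3, 33.4 and 37.0 in CH, and its groups overlapped at a log2 change of 0.77 (adjusted p = 0.0599).

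**Figure D3:**
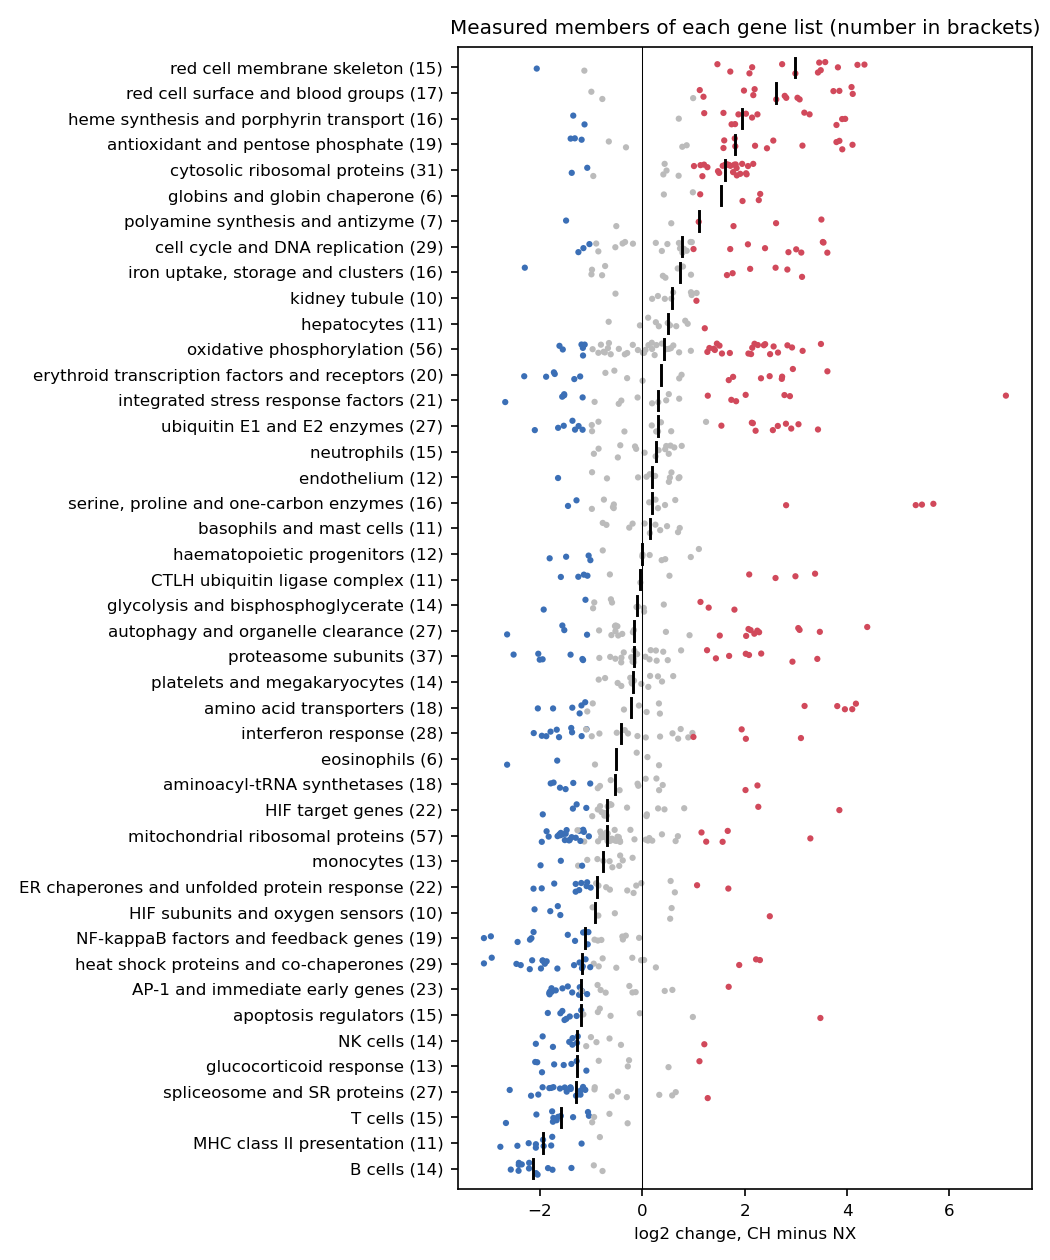
Log2 change, CH minus NX, of each measured member of 44 gene lists, 1 point per gene (red called higher, blue called lower, grey not called), with a black line at the median and the number measured in brackets. Lists are ordered by median, from 2.99 for the red cell membrane skeleton to -2.14 for B cells, and the median over all genes is 0.05.

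Genes of autophagy and organelle clearance split, with 11 of 27 higher and 4 lower and a median of -0.16 (0.16 under quantile normalization, 0.15 without the 3 arrays that stood apart and -1.41 with 4 higher and 14 lower under the hybridization control scaling). Atg4a, a protease that processes the LC3 and GABARAP proteins, had 203, 801, 410.2 and 288 in NX and 6674, 10194, 6346 and 10419 in CH and a change of 4.39 on the log2 scale (standard error 0.38, adjusted p = 3.67e-06). Wipi1, which binds the growing autophagosome, rose by 3.47, Sqstm1, the cargo receptor p62, by 3.07 and Pink1, a kinase that marks mitochondria for removal, by 3.05, and these 4 kept their call under the hybridization control scaling. Gabarapl2, which joins the autophagosome membrane, rose by 2.25 (0.40 under quantile normalization and 0.63 under the hybridization control scaling, called under neither). Alox15, a lipoxygenase of reticulocytes and eosinophils, went the other way, with 112, 128, 146 and 140.2 in NX and 10.3, 17.2, 4.00 and 1.80 in CH and a log2 change of -2.64.

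Ubiquitin enzymes also split by member. Of the E1 and E2 enzymes, which activate and carry ubiquitin, 10 were higher and 7 lower among 27 measured members, with a median of 0.31 (0.41 with 5 higher and 5 lower under quantile normalization and -1.17 with 5 higher and 15 lower under the hybridization control scaling). Ube2c, the E2 of the anaphase-promoting complex, had 868, 3051, 1955 and 1684 in NX and 14772, 22332, 16001 and 23326 in CH and a change of 3.43 on the log2 scale (standard error 0.49, adjusted p = 0.00016). Ube2o, an E2 that removes ribosomes in maturing red cells, had 3615, 6648, 5303 and 6901 in NX and 28853, 37589.9, 35892 and 54773 in CH and a log2 change of 2.81 (0.99 under quantile normalization and 1.19 under the hybridization control scaling, called under the latter). In the CTLH complex, an E3 ligase of erythroid maturation, 4 were higher and 4 lower among 11 measured members, with a median of -0.03 (0.27 with 2 higher and 1 lower under quantile normalization, 0.17 without the 3 arrays that stood apart and -1.56 with 2 higher and 6 lower under the hybridization control scaling). Ranbp10, a scaffold, had 998, 1834, 1239 and 1413 in NX and 9696, 15568, 11783 and 21856 in CH, with the groups far apart, and a log2 change of 3.38, and Rmnd5a, a catalytic subunit, rose by 2.99. Their close relatives Ranbp9 and Rmnd5b were lower, at -1.59 and -1.25, and so was Maea, the other catalytic subunit, at -1.07. Of the 4 lower members 1 kept its call without the 3 arrays that stood apart, and 1 did without CH replicate 1 alone.

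Of 37 proteasome subunits, 8 were higher and 7 lower, with a median of -0.16 (0.04 under quantile normalization and -1.70 with 2 higher and 28 lower under the hybridization control scaling). Psme4, the PA200 cap, had 396, 787, 635 and 361 in NX and 3928, 6019, 4647 and 9600.1 in CH and a log2 change of 3.42, and Psmd4, a ubiquitin receptor of the regulatory particle, rose by 2.93. These kept their call under the hybridization control scaling, and the other 6 higher members did not. The 3 interferon-induced catalytic subunits of white cells were all lower. Psmb8 had 555, 1162, 1034 and 714 in NX and 36.8, 103, 678 and 96.7 in CH, where CH replicate 3 lay within the NX range, and a log2 change of -2.51, and Psmb9 and Psmb10 stood at -1.94 and -2.03.

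Of the genes of cell division and replication, 10 were higher and 3 lower among 29 measured members, with a median of 0.79 (0.81 with 11 higher and 0 lower under quantile normalization and -0.45 with 6 higher and 8 lower under the hybridization control scaling). Mki67, a marker of dividing cells, had 698, 593, 520.3 and 758 in NX and 6866, 9099.6, 4932 and 13120.0 in CH and a change of 3.62 on the log2 scale (standard error 0.31, adjusted p = 3.69e-06). Esco2, which joins sister chromatids, had 118, 173, 149 and 192 in NX and 1854, 2707, 1565 and 1968 in CH, and Ccnb2, a mitotic cyclin, had 48.3, 65.8, 71.5 and 73.2 in NX and 1094, 1478, 461 and 902 in CH. Both were apart between groups, at 3.54 and 3.53. The members that fell were the replication genes Mcm4, Mcm7 and Pcna, at -1.24, -1.03 and -1.15. Of these, 0 kept the call under quantile normalization and 1 without the 3 arrays that stood apart, and Mcm7 lost it without NX replicate 2 or 3 or CH replicate 1 or 2. Top2a, a topoisomerase of dividing cells, gave 321, 60.6, 78.9 and 86.3 in NX and 394, 312, 135 and 93.5 in CH and was not called at its brightest probe set, though 1 of its 3 probe sets was higher.

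Most antioxidant genes rose, as 12 were higher and 3 lower among 19 measured members, with a median of 1.81 (0.57 with 6 higher and 2 lower under quantile normalization and 0.21 with 5 higher and 5 lower under the hybridization control scaling). Sod2, the mitochondrial superoxide dismutase, had 255, 638, 545 and 486 in NX and 7319.8, 9066, 5553 and 11855 in CH and a change of 4.11 on the log2 scale (standard error 0.32, adjusted p = 1.81e-06). Nqo1, a quinone reductase, had 138, 201, 73.9 and 86.4 in NX and 2097, 2629.9, 1057 and 2572 in CH, without overlap, and a log2 change of 3.91, and Txnrd2 and Blvrb, a mitochondrial thioredoxin reductase and a biliverdin reductase, rose by 3.85 and 3.79. These 4 were among the 5 that kept their call under the hybridization control scaling. Prdx2 and Cat, the peroxiredoxin and catalase of red cells, rose by 2.56 and 2.20. They stood at 0.70 and 0.44 under quantile normalization and at 0.95 and 0.59 under the hybridization control scaling, and neither was called under either. Nfe2l2, the factor Nrf2 that controls Nqo1, went down by contrast, with 309, 483, 403 and 415 in NX and 137, 82.9, 191 and 179 in CH and a log2 change of -1.40, as did Gclc, of glutathione synthesis, at -1.31 and Pgd, of the pentose phosphate pathway, at -1.18. The call of Pgd was lost without CH replicate 2.

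In the polyamine pathway, 4 were higher and 1 lower among 7 measured members, with a median of 1.1 (0.02 with 1 higher and 1 lower under quantile normalization and -0.50 with 2 higher and 3 lower under the hybridization control scaling). Smox, spermine oxidase, had 674, 920.2, 717 and 1329.5 in NX and 8721, 10418, 7631 and 14934 in CH and a change of 3.50 on the log2 scale (standard error 0.32, adjusted p = 5.33e-06), and Azin1, which frees ornithine decarboxylase from its inhibitor, rose by 2.61 (0.96 under quantile normalization and 1.00 under the hybridization control scaling, called under the latter). Odc1, ornithine decarboxylase, gave 3848, 4413, 3610.0 and 6577 in NX and 3041, 7145, 9255 and 9728 in CH, where the groups overlapped at a log2 change of 0.57 (-1.04 under the hybridization control scaling). Sat1, which acetylates spermidine for breakdown, was lower, at -1.49.

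The hypoxia-inducible factors (HIF), whose α-subunits are degraded when oxygen is at hand, were read here at the RNA level only. Of the subunits, their oxygen sensors and Vhl, 1 was higher and 4 lower among 10 measured members, with a median of -0.91 (-2.33 with 0 higher and 7 lower under the hybridization control scaling). Hif1a had 927, 924, 1060.4 and 945 in NX and 339.5, 125, 513 and 86.1 in CH, all CH mice below all NX mice, and a change of -2.10 on the log2 scale (standard error 0.41, adjusted p = 0.00145). Epas1, which encodes HIF-2α, gave 77.9, 39.8, 45.0 and 86.3 in NX and 37.9, 4.36, 78.9 and 55.6 in CH and was not called (-0.53). Hif3a, a member that can inhibit the others, was higher at 1 of its 6 probe sets, with 7.76, 80.8, 68.6 and 59.3 in NX and 206, 343, 289.6 and 587 in CH and a log2 change of 2.49, which was 1.00 and not called under the hybridization control scaling. The oxygen sensors Hif1an and Egln1 were lower, at -1.79 and -1.65. Hif1an had 149, 150.4, 169 and 147 in NX and 33.7, 11.7, 75.0 and 29.6 in CH. Vhl, which targets the α-subunits for degradation, was lower at -1.60.

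Of 22 measured genes known as HIF targets 2 were higher and 4 lower, near the shares of 9.07% and 19.5% over all genes. Their median was -0.68 (-0.45 with 1 higher and 4 lower under quantile normalization and -1.94 with 1 higher and 15 lower under the hybridization control scaling). The higher ones were Tfrc and Mxi1, a Myc antagonist, the latter at 2.27 (0.54 under quantile normalization and 0.65 under the hybridization control scaling, called under neither), and both are also expressed in red cell precursors. Slc2a1, the glucose transporter GLUT1, had 945, 1301, 1066 and 1024 in NX and 639, 419, 805 and 127 in CH and a log2 change of -1.35 (adjusted p = 0.0241), a call lost without NX replicate 2 or 3 or CH replicate 4. Bhlhe40 fell, with 128, 207, 148 and 105 in NX and 27.4, 46.1, 11.8 and 23.0 in CH and a log2 change of -1.94. Vegfa, the vessel growth factor, was dim and overlapped, with 44.6, 19.3, 15.8 and 18.5 in NX and 42.2, 67.3, 6.20 and 35.8 in CH and a log2 change of 0.31. In glycolysis 3 were higher and 2 lower among 14 measured members, with a median of -0.10 (-0.30 with 2 higher and 1 lower under quantile normalization and -1.60 with 0 higher and 9 lower under the hybridization control scaling), and between 1 (without CH replicate 4) and 4 (without NX replicate 1 or CH replicate 3) were lower with 1 array left out. Bpgm, which makes the bisphosphoglycerate that loosens oxygen from haemoglobin, had 18922, 13169, 12285 and 19849 in NX and 43341, 55056, 54434 and 69295 in CH and rose by 1.80, but by 0.07 under quantile normalization and 0.19 under the hybridization control scaling. Tpi1, triose phosphate isomerase, had 492, 786, 615 and 1153 in NX and 131, 163, 258 and 186 in CH and a change of -1.92 on the log2 scale (standard error 0.29, adjusted p = 0.000248).

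Mitochondrial genes moved in both directions. Of the subunits of oxidative phosphorylation, 22 were higher and 6 lower among 56 measured members, with a median of 0.43 (0.45 with 15 higher and 3 lower under quantile normalization and -1.05 with 5 higher and 30 lower under the hybridization control scaling). Ndufa1, of complex I, had 1170.2, 1411, 1172 and 2125 in NX and 12039.6, 16458, 11816 and 29234 in CH and a change of 3.49 on the log2 scale (standard error 0.31, adjusted p = 4.45e-06), and Cox4i1, of complex IV, rose by 3.13. Cox5a, also of complex IV, went the other way at all 3 of its probe sets, with 3443, 5111, 4092 and 6618 in NX and 1506, 1762, 2157 and 3065 in CH and a log2 change of -1.18, and Ndufb5 and Sdhc, of complexes I and II, were at -1.61 and -1.55. Of the mitochondrial ribosomal proteins 5 were higher and 20 lower among 57 measured members, with a median of -0.69 (-0.45 with 5 higher and 11 lower under quantile normalization and -2.05 with 1 higher and 49 lower under the hybridization control scaling). Mrpl32 rose, with 655, 1209.8, 945 and 977 in NX and 8271, 9526, 6239 and 14251 in CH and a log2 change of 3.28, while Mrps6 had 220.4, 471, 259 and 262 in NX and 45.6, 28.3, 156 and 66.3 in CH and a log2 change of -1.96. Without the 3 arrays that stood apart 12 of the 20 lower members kept their call.

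Cytosolic ribosomal proteins, among the brightest genes of blood, rose as a block on the deposited scale, with 24 of 31 higher and 2 lower and a median of 1.62. The median was -0.04 under quantile normalization and 0.03 under the hybridization control scaling. Under either of these scalings 0 of the 24 were called higher, and 1 and 5 of the list were lower. Rps3 had 7895, 8484, 8648 and 8992 in NX and 22432, 24091, 30697 and 37469 in CH, and its log2 change of 1.72 became -0.07 under quantile normalization and 0.11 under the hybridization control scaling, called under neither. The 2 that fell were Rpl12 and Rpl14, at -1.37 and -1.07, and neither call held without the 3 arrays that stood apart. Ribosomal protein genes have many processed copies that a probe set may also read. Lower ribosomal protein genes numbered 1 without NX replicate 2 or 3 or CH replicate 1 and 0 without the 3 arrays that stood apart.

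Among the largest decreases were chaperones. Of 29 heat shock proteins and co-chaperones, 3 were higher and 18 lower, with a median of -1.18 (-2.64 with 0 higher and 24 lower under the hybridization control scaling). Stip1, the co-chaperone that links Hsp70 and Hsp90, had 270.3, 662, 237 and 241 in NX and 6.81, 9.40, 53.1 and 44.2 in CH and a change of -3.09 on the log2 scale (standard error 0.40, adjusted p = 7.25e-05). Hspa1b, the inducible Hsp70, had 349.6, 1279, 146 and 162 in NX and 33.0, 51.0, 2.45 and 49.5 in CH, where NX replicate 2 was the highest of all and no CH mouse reached the NX range, and a log2 change of -2.94. Dnaja1, an Hsp40, had 2198, 3756, 1642 and 1790.2 in NX and 382, 268, 506 and 453 in CH and a change of -2.45 on the log2 scale (standard error 0.29, adjusted p = 3.64e-05). Hsp90aa1, the inducible Hsp90, gave 1136, 2709, 1169.6 and 1643 in NX and 1122, 1585, 1428 and 2204 in CH and was not called (-0.02). Those that rose were Dnajb6 at 2.30, Cct8 at 2.22 and Ahsa1 at 1.89, of which none kept the call under the hybridization control scaling. Dnajb6, the brightest of them, stood at 0.62 under quantile normalization and 0.69 under the hybridization control scaling, called under neither.

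Chaperones of the endoplasmic reticulum followed, as 2 were higher and 10 lower among 22 measured members, with a median of -0.88 (-0.66 with 1 higher and 5 lower under quantile normalization and -2.24 with 0 higher and 18 lower under the hybridization control scaling). Hsp90b1, the Hsp90 of that compartment, had 586, 707, 655 and 585 in NX and 119.8, 129, 238 and 81.8 in CH and a change of -2.12 on the log2 scale (standard error 0.30, adjusted p = 0.000137), and Herpud1, of protein quality control there, had a log2 change of -1.96. Hspa5, the chaperone BiP, was at -1.19, and -0.96 and not called under quantile normalization. Xbp1, a factor of the unfolded protein response, rose by 1.07, with 157, 299.7, 259 and 229 in NX and 559, 554, 298 and 679.6 in CH, and Calr, calreticulin, by 1.68 (0.42 under quantile normalization and 0.07 under the hybridization control scaling, called under neither). Xbp1 was higher at all 4 of its probe sets, but at this one the call was lost without NX replicate 1 or CH replicate 4 and under median centring, and its change was -0.46 under the hybridization control scaling. Higher genes of this list numbered 1 without NX replicate 1 or CH replicate 4 and 1 without the 3 arrays that stood apart.

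Of the spliceosome and SR proteins, 1 was higher and 18 lower among 27 measured members, with a median of -1.29 (-2.65 with 0 higher and 24 lower under the hybridization control scaling). Snrpb, a core protein of the small nuclear ribonucleoproteins, had 672, 868, 1058 and 929 in NX and 77.4, 57.8, 433 and 138 in CH and a change of -2.59 on the log2 scale (standard error 0.43, adjusted p = 0.000503). Srsf1, a splicing regulator, had 3707, 4164, 4132 and 3222 in NX and 616, 559, 1993 and 1291 in CH and was lower at 5 of its 7 probe sets. In both, CH replicate 3 was the nearest to the NX mice. Sf3b3, of the branch point complex, was at -2.17, and the 1 member that rose was Srsf11 at 1.28, which was -0.30 under the hybridization control scaling and which has another probe set that was lower.

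Many signalling genes of white cells were lower. Of the factors and feedback genes of NF-κB, 0 were higher and 12 lower among 19 measured members, with a median of -1.11 (-2.45 with 0 higher and 19 lower under the hybridization control scaling). Cd83, a marker of activated lymphocytes and dendritic cells, had 1178, 1514, 1483 and 1041 in NX and 142, 40.7, 245 and 221 in CH and a change of -3.09 on the log2 scale (standard error 0.39, adjusted p = 6.67e-05). Birc2, an inhibitor of apoptosis, had 1548, 2009.9, 1389.7 and 2893 in NX and 98.4, 157, 665 and 251 in CH and a log2 change of -2.95, and Nfkbia, the inhibitor IκBα, had 3601, 3910.3, 3673 and 4616 in NX and 700.0, 482, 1917 and 969.8 in CH and -2.12 and was lower at all 5 of its probe sets. Of the AP-1 and immediate early genes, 1 was higher and 13 lower among 23 measured members, with a median of -1.18 (-1.23 with 0 higher and 12 lower under quantile normalization and -2.26 with 0 higher and 20 lower under the hybridization control scaling). Klf2, which keeps lymphocytes quiescent, had 779.6, 1141, 1185 and 1023 in NX and 267, 168, 589 and 223 in CH and a log2 change of -1.81. Fos and Jun themselves gave 829, 949, 1011 and 1549 in NX and 1376, 534, 373 and 595 in CH and 88.2, 108, 77.7 and 87.7 in NX and 64.7, 66.5, 73.4 and 109 in CH, both overlapping and not called. The B cell markers were lower in the same 4 mice, and their part in these decreases was not tested. Jund was the 1 member to rise, at 1.69, and stood at -0.09 under quantile normalization and 0.08 under the hybridization control scaling, called under neither.

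Many genes of the glucocorticoid response, a list that also holds the receptor, were lower too. Among its 13 measured members 1 was higher and 8 lower, with a median of -1.28 (-1.08 with 0 higher and 8 lower under quantile normalization and -2.80 with 0 higher and 11 lower under the hybridization control scaling). Tsc22d3, the leucine zipper GILZ, had 2248, 1574, 1829 and 2452 in NX and 522, 351, 542 and 492 in CH and a change of -2.05 on the log2 scale (standard error 0.24, adjusted p = 3.24e-05). Nr3c1, the receptor, had a log2 change of -1.72 and Cxcr4, the receptor that holds cells in the marrow, -1.96. Higher glucocorticoid genes numbered 0 without CH replicate 4. Among the apoptosis regulators 1 was higher and 8 lower among 15 measured members, with a median of -1.19 (-1.01 with 2 higher and 8 lower under quantile normalization and -2.46 with 1 higher and 13 lower under the hybridization control scaling). The one that rose was Bcl2l1, the survival factor Bcl-xL of late erythroblasts, with 627, 1108, 982 and 1197 in NX and 7105, 11839.5, 10098 and 15857 in CH and a change of 3.48 on the log2 scale (standard error 0.34, adjusted p = 8.54e-06), and it was higher at all 4 of its probe sets and under the hybridization control scaling (1.87). Mcl1, a survival factor of white cells, had 5125, 5045, 5287 and 5375 in NX and 2509.8, 1218, 3824 and 1776 in CH and was lower at all 6 of its probe sets, at -1.28. Higher apoptosis genes numbered 2 without NX replicate 4 or CH replicate 1, 2 or 3 and 2 without the 3 arrays that stood apart.

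Interferon genes divided. Of 28 measured, 4 were higher and 10 lower, with a median of -0.42 (-0.34 with 2 higher and 9 lower under quantile normalization and -1.65 with 1 higher and 17 lower under the hybridization control scaling). Rsad2, the antiviral protein viperin, had 10798, 10742, 9605 and 12898 in NX and 34206, 45146, 43879 and 58415 in CH and a log2 change of 2.02, which became 0.20 under quantile normalization and 0.41 under the hybridization control scaling. Oas3, which makes the messenger that activates RNase L, had 439, 1799.8, 992 and 779.7 in NX and 4629, 9136, 7675 and 10932 in CH and a change of 3.10 on the log2 scale (standard error 0.43, adjusted p = 0.000138), and was still called under both. Isg20 was at 1.94 (0.13 under quantile normalization and 0.33 under the hybridization control scaling, called under neither). Ifi27 was at 1.00, and it turned to -0.59 under the hybridization control scaling and lost its call without NX replicate 1 or 4 or CH replicate 2, 3 or 4. Without CH replicate 1, 7 members were higher. The lower members were led by Gbp3, a guanylate binding protein, with 287, 329, 328 and 205 in NX and 31.4, 54.7, 119 and 33.7 in CH and a log2 change of -2.12.

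The lowest medians of the 44 lists were those of B cells, MHC class II genes and T cells. Of the B cell markers, 0 were higher and 12 lower among 14 measured members, with a median of -2.14 (-3.72 with 0 higher and 14 lower under the hybridization control scaling) and a summed signal of 27658 to 34496 in NX and 3930.1 to 17142 in CH. Cd79a, of the B cell receptor, had 2946, 3726, 3966 and 3614 in NX and 404, 428, 1966 and 934 in CH and a change of -2.21 on the log2 scale (standard error 0.40, adjusted p = 0.000855), and Blk, a kinase of that receptor, had 1219, 1302, 1369 and 1031 in NX and 76.4, 106, 550.3 and 287 in CH and a log2 change of -2.56. Of the MHC class II genes, which present peptides to T cells, 0 were higher and 10 lower among 11 measured members, with a median of -1.93 (-3.40 with 0 higher and 11 lower under the hybridization control scaling). H2-DMa, which loads the peptide, had 717, 1181, 1290.2 and 1021 in NX and 54.3, 104, 369 and 153 in CH and a log2 change of -2.77. Cd74, the invariant chain, had 14007, 12714, 12656 and 15265 in NX and 3033, 3349, 16599 and 7621 in CH, where CH replicate 3 was above every NX mouse, and its call (adjusted p = 0.0478) was lost without any 1 array other than CH replicates 3 and 4. Without the 3 arrays that stood apart 6 of the 10 lower MHC class II genes kept their call.

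Of the T cell markers, 0 were higher and 11 lower among 15 measured members, with a median of -1.59 (-2.78 with 0 higher and 15 lower under the hybridization control scaling) and a summed signal of 8626 to 11393 in NX and 2118 to 7198 in CH, which overlapped in no mouse. Cd3e, of the T cell receptor complex, had 1252, 1948, 1639 and 1797 in NX and 394, 149.6, 843 and 402 in CH and a change of -2.06 on the log2 scale (standard error 0.38, adjusted p = 0.00103). Ccr7, the homing receptor of naive T cells, had 1842, 2246, 2670.0 and 2487 in NX and 147, 238, 899 and 452 in CH and a log2 change of -2.66. Without the 3 arrays that stood apart 4 of the 11 lower T cell markers kept their call, with a median of -1.17. Of the NK cell markers, 1 was higher and 8 lower among 14 measured members, with a median of -1.26 (-2.34 with 0 higher and 13 lower under the hybridization control scaling) and a summed signal of 4469.9 to 7850.4 in NX and 1987 to 3844 in CH. Gzma, a granzyme, had 1496, 3076, 2811 and 1620.4 in NX and 455, 266, 1115 and 439 in CH and a log2 change of -2.08, and Ncr1, the receptor that defines these cells, was dim at 73.3, 86.1, 124 and 33.7 in NX and 48.4, 61.4, 42.1 and 21.4 in CH and not called. The higher NK cell member was Prf1, perforin, at 1.21, and -0.31 under the hybridization control scaling. Higher NK cell markers numbered 0 without the 3 arrays that stood apart.

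Neutrophil and platelet markers did not follow the lymphocytes on the deposited scale. Of 15 neutrophil markers 0 were higher and 0 lower, with a median of 0.26 (-1.13 under the hybridization control scaling) and a summed signal of 20396 to 46755 in NX and 16583 to 58577 in CH. S100a8, an abundant calcium-binding protein of neutrophils, had 5026, 5561, 5908 and 13281 in NX and 14917, 3671, 9730.0 and 4690.1 in CH, with both groups spread over the same range. Of 14 platelet and megakaryocyte markers 0 were higher and 0 lower, with a median of -0.18 (-1.70 under the hybridization control scaling) and a summed signal of 43033 to 77203 in NX and 49135 to 85412 in CH, and Pf4, a platelet chemokine, had 11001, 10054, 9424 and 16603 in NX and 14005, 13706, 12246 and 21579 in CH. These 2 lists did depend on the scaling. Under quantile normalization 2 and 4 of them were lower, and under the hybridization control scaling 9 and 13, with S100a8 at -1.56 and Pf4 at -1.23. Lower platelet markers numbered 1 without NX replicate 1.

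Of 13 monocyte markers 3 were lower, with a median of -0.76 (-2.04 with 0 higher and 12 lower under the hybridization control scaling) and a summed signal of 10631 to 17348 in NX and 5287 to 15252 in CH. With 1 array left out, between 1 (without NX replicate 2 or 3) and 7 (without CH replicate 3) were lower. Ms4a6c had 1498, 1216, 2358 and 1677 in NX and 228, 375, 930.1 and 323 in CH and a log2 change of -1.98, and Csf1r, the receptor for their growth factor, had -1.59, with CH replicate 3 at 844 inside the NX range of 502 to 1241 and its call lost without NX replicate 2 or 3 or CH replicate 2. Of 6 eosinophil markers 0 were higher and 2 lower, with a median of -0.51 (-1.59 with 0 higher and 4 lower under the hybridization control scaling). Alox15 and Siglecf were lower, at -2.64 and -1.66, while the defining Epx and Prg2 were dim in both groups, the former at 1.51, 1.31, 9.47 and 0.882 in NX and 26.3, 2.48, 2.12 and 6.96 in CH. Of 11 basophil and mast cell markers 0 were higher and 0 lower, with a median of 0.15 (-0.01 under median centring, -0.11 without the 3 arrays that stood apart and -0.93 with 0 higher and 2 lower under the hybridization control scaling). Higher basophil markers numbered 1 without CH replicate 4. Of 12 progenitor markers 4 were lower and 0 higher, with a median of 0.01 (-0.11 under quantile normalization, -0.15 under median centring, -0.27 without the 3 arrays that stood apart and -0.69 with 0 higher and 5 lower under the hybridization control scaling), led by Cd48, which lymphocytes also carry, at -1.81. Higher progenitor markers numbered 1 without CH replicate 4. Lower progenitor markers numbered 2 without NX replicate 3 or CH replicate 2. Cd34, which defines progenitors, gave 1.90, 6.0, 18.9 and 4.12 in NX and 32.8, 3.27, 44.2 and 1.02 in CH and was not called. Markers of tissues outside the blood were dim, with summed signals over 11 hepatocyte, 10 kidney and 12 endothelial genes of at most 1710.2, 451 and 1258, and 1, 1 and 0 of them higher and 0, 0 and 1 lower. Under the hybridization control scaling 0, 0 and 0 were higher and 1, 1 and 3 lower. Higher hepatocyte markers numbered 0 without NX replicate 4 and 2 without NX replicate 1 or CH replicate 4. Higher kidney markers numbered 0 without CH replicate 2, 3 without CH replicate 3 or 4 and 0 without the 3 arrays that stood apart. Higher endothelial markers numbered 1 without CH replicate 4. Lower endothelial markers numbered 2 without NX replicate 1 or CH replicate 3.

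The CH mice were not alike in these decreases. In the lower probe sets CH replicate 3 was the nearest to normoxia. For the 6282 lower probe sets the median difference from the NX mean was -1.66, -1.73, -0.85 and -1.64 in CH replicates 1 to 4, while for the 3628 higher probe sets it was 1.62, 1.74, 1.38 and 1.91. In 649 of the lower probe sets (10.3%) CH replicate 3 lay within the NX range, against 112, 69 and 70 for CH replicates 1, 2 and 4. In the higher probe sets this was so in 83, 66, 298 and 304 for CH replicates 1 to 4. The mean log2 level of the B cell markers, relative to the NX mean, was -2.60, -2.39, -0.90 and -1.92 in CH replicates 1 to 4, and that of the MHC class II genes -2.67, -2.76, -0.49 and -1.70. For the T cell markers it was -1.79, -1.82, -0.31 and -1.72 and for the spliceosome -1.44, -1.30, -0.39 and -1.19. The red cell membrane skeleton, by comparison, was at 2.10, 2.40, 2.07 and 3.10. CH replicate 3 kept more of the lymphocyte and splicing genes, but had about as much of the red cell genes as CH replicate 1.

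**Figure D4:**
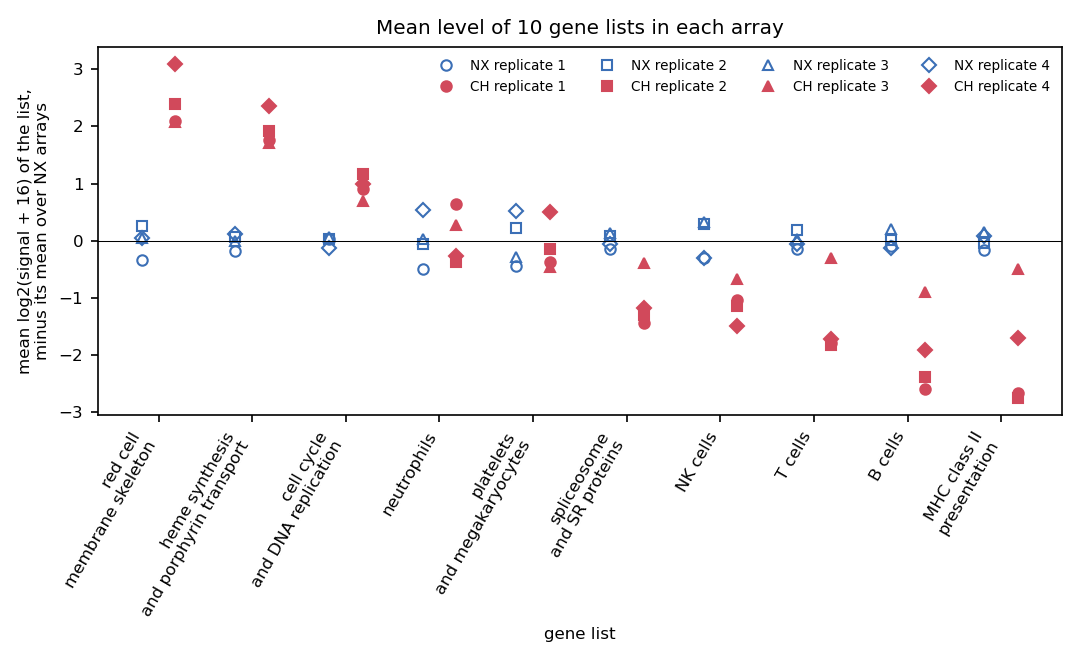
Mean log2(signal + 16) of the measured members of 10 lists in each array, relative to the mean over the 4 NX arrays, with open symbols for NX and filled symbols for CH and 1 shape per replicate number. CH replicate 3 (filled triangles) lies nearest to the NX arrays in the last 5 lists, and the CH arrays spread over the NX range for neutrophils.

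The called genes that varied most among the CH mice, with a mean CH signal of at least 100, were all lower genes. H2-K1, a classical MHC class I gene, had 1702, 3205, 2802 and 2417 in NX and 115, 196, 2480.2 and 484 in CH, so that CH replicate 3 fell within the NX range, and a log2 change of -2.52 (adjusted p = 0.00863). Its call was lost without the 3 arrays that stood apart. Pdrg1 had 315, 547, 545 and 426 in NX and 7.22, 13.7, 338 and 118 in CH and Trim7, a ubiquitin ligase, had 397, 517, 646 and 392 in NX and 6.74, 7.80, 276 and 125 in CH. In both, CH replicates 1 and 2 were far below CH replicates 3 and 4. Ccl9, a chemokine of myeloid cells, had 318, 671, 734 and 513 in NX and 191, 138, 566 and 15.4 in CH, where the lowest mouse was CH replicate 4 instead. Jmjd6 and Mrpl39 were the others, with 311, 537, 365 and 234 in NX and 23.0, 11.3, 313 and 150 in CH and 313, 497, 387 and 239 in NX and 46.8, 9.29, 184 and 331 in CH, and the calls of Ccl9, Jmjd6 and Mrpl39 were each lost without at least 1 CH array.

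Other leading decreases lay outside the lists. Stxbp3, a regulator of vesicle fusion, had 720.4, 789, 886 and 626 in NX and 33.9, 50.2, 142 and 48.2 in CH and a change of -3.33 on the log2 scale (standard error 0.33, adjusted p = 8.88e-06). Cnn3, an actin-binding calponin, had 1444, 1659, 1811 and 1449 in NX and 37.7, 186, 563 and 190.0 in CH and was lower at 5 of its 6 probe sets, Smad7, an inhibitor of TGF-β signalling, had 525, 512, 619 and 564 in NX and 25.2, 65.9, 134 and 54.4 in CH, and Igha, the heavy chain of immunoglobulin A, had 252, 572, 595 and 366 in NX and 9.16, 43.2, 30.9 and 156 in CH. The log2 changes of Cnn3, Smad7 and Igha were -3.08, -2.88 and -2.90, and these genes were chosen among those without overlap between the groups. Jakmip1, Tmem158, Rfc2 and the transcript 4930486L24Rik were at -3.42, -3.0, -3.02 and -3.72. Other leading increases were Reep6, a protein that shapes the endoplasmic reticulum, with 29.1, 34.5, 25.8 and 21.5 in NX and 1245, 1587, 1045 and 3178 in CH and a change of 5.22 on the log2 scale (standard error 0.32, adjusted p = 5.5e-07), Ctsf, a lysosomal protease, at 4.68, Rundc3a at 4.50, Prnp, the prion protein, at 4.42 and Tlcd4 at 4.41. The unnamed loci Gm20161 and 1300017J02Rik rose by 4.46 and 4.45.

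Probe sets of the same gene did not always agree in direction. Of 1675 genes with at least 2 called probe sets, 161 (9.61%) had one called higher and another called lower. Dcaf7, a substrate adaptor of ubiquitin ligases, had 23.8, 38.3, 40.1 and 44.7 in NX and 224, 494, 416 and 575 in CH at one probe set and 649.9, 869, 886 and 834 in NX and 172, 121, 422 and 141 in CH at the other. The groups were apart at both, with log2 changes of 3.01 (standard error 0.29, adjusted p = 8.35e-06) and -2.0 (standard error 0.32, adjusted p = 0.000378). Rbm33 had 1197, 1271, 963 and 1896 in NX and 8730.1, 11562, 10673 and 18558 in CH at one and 809.7, 914, 1062 and 935 in NX and 192, 331, 735 and 181 in CH at the other, at 3.19 and -1.55. Mapre2, a protein of microtubule ends, was at 1.91 and -2.67, Cgrrf1 at 3.52 and -1.32 and Ssbp2 at 3.44 and -1.03. The lower calls of Cgrrf1 and Ssbp2 were lost without NX replicate 3 or CH replicate 1 and without NX replicate 4 or CH replicate 2 or 4. Both calls held for 103 of the 161 genes under quantile normalization, for 109 under median centring, for 7 under the hybridization control scaling and for 92 without the 3 arrays that stood apart. Which transcript each probe set reads was not tested, and the value of a gene given above is that of its brightest probe set unless others are named. With a gene represented by the mean of its probe sets instead, 7 T cell markers were lower in place of 11, with a median of -0.98. The glucocorticoid list had 4 lower in place of 8, the apoptosis regulators 5 in place of 8 and the stress response factors 2 in place of 5. The list of HIF subunits had 0 higher and 2 lower in place of 1 and 4. B cell markers (11 lower in place of 12) and MHC class II genes (10 in both) changed little.

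**Figure D5:**
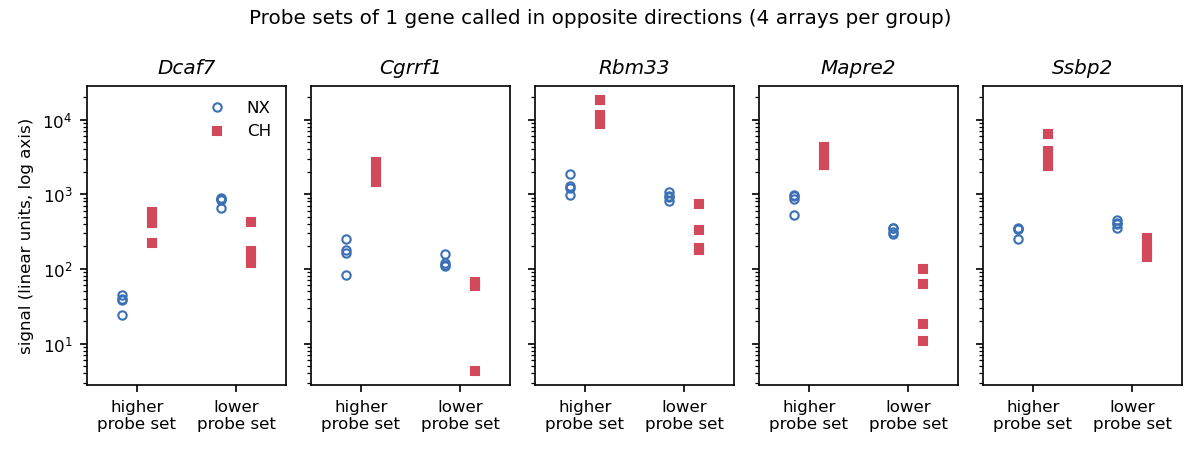
Signals of a higher and a lower probe set of each of 5 genes in the 4 NX mice (open circles) and the 4 CH mice (filled squares), on a log axis. At Dcaf7 one probe set goes from at most 44.7 in NX to at least 224 in CH, and the other from at least 649.9 to at most 422.

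Of the genes that the study also measured by PCR, Cd36 and Pycr1 rose as given above. Ubfd1, a ubiquitin domain protein, gave 152, 144, 110.4 and 144 in NX and 359, 129, 123 and 122 in CH at its brightest probe set, where CH replicate 1 stood alone, and a log2 change of 0.24 (adjusted p = 0.642), while 2 of its 4 probe sets were called lower. Actb, β-actin, a common reference gene, had 16317, 12438, 12985 and 20595 in NX and 28311, 33831, 29698 and 46554 in CH, all CH mice above all NX mice, and a change of 1.15 on the log2 scale (standard error 0.25, adjusted p = 0.00352). Its change was -0.57 under quantile normalization and -0.46 under the hybridization control scaling, and its call was lost under both, under median centring and without CH replicate 4.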

How the data were processed

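Blood RNA of 12 mice was hybridized by the authors to Affymetrix Mouse 430 2.0 arrays, 1 mouse per array, and 8 arrays (4 NX, 4 CH) are compared here. The deposited values are probe set intensity values on a linear scale, whose trimmed mean (2% left out at each end) is 150 on every array, so the authors' software scaled each array as a whole. The methods name the GeneChip Operating System for storing raw intensities of each probe set and GC-RMA for normalization, and do not say which of them gave the deposited values. The labels and the methods describe the RNA extraction and amplification kits differently, and neither gives a batch or scan date.

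Signals were analysed as log2(signal + 16) with limma 3.58.1 (lmFit, eBayes) in R 4.3.3, on all 12 arrays with group means and 9 residual degrees of freedom, and p-values were adjusted by Benjamini-Hochberg over 45101 probe sets. Each array is a different mouse, and the number of mice limits the precision. Of the probe sets, 34945 name 1 gene, 932 several, 9160 none and 64 are controls. Of those that name 1 gene, 34754 were matched to current symbols by gene number. A gene is represented by its brightest probe set over the 12 arrays (18194 genes).

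The 44 gene lists hold 944 members, of which 844 are measured, 22 under an older name. Members and lists were chosen with earlier results of these data known. The text names the 12 genes that rose most and the 12 that fell most without overlap between groups, the first 2 and up to 3 most changed members of each list, the genes measured by PCR, the 6 called genes most variable among CH mice and the 5 genes with the widest split between probe sets. Other members were named after their values were seen, and 1 gene is not reported here. Alternatives were quantile normalization, median centring, scaling on the hybridization controls, other pseudocounts, thresholds and filters, array weights, a replicate block, the mean of the probe sets of a gene and leaving out arrays. The test was tried on simulated data with known changes.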

Additional observations from a re-analysis of the deposited data

Results flagged for a closer look

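In 19 of 516 groups of 4 mice (258 named probe sets in NX and in CH, 3.68%), 1 mouse stood apart from the other 3 by Dixon's criterion, which chance meets in about 1 in 20 groups. NX replicate 1 was that mouse in 6 groups, NX replicate 3 in 4, CH replicate 3 in 3, NX replicate 4 and CH replicate 1 in 2 each, and NX replicate 2 and CH replicate 4 in 1 each.

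In CH replicate 3, the mouse nearest to normoxia in the lower probe sets, the mTORC1 inhibitor Ddit4 was at 793.772 against 279 to 323 in the other CH mice, the replication factor subunit Rfc2 at 180.921 against 4.07 to 13.6, and the membrane skeleton gene Epb42 at 3597.95 against 5815 to 6205. CH replicate 1 had Ubfd1 at 358.745 against 122 to 129, and Cgrrf1, at the probe set that was lower, at 4.22593 against 58.9 to 67.6. CH replicate 4 had the liver gene Apoa1 at 15.0839 against 64.3 to 68.6.

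In NX replicate 1, one of the arrays with brighter dim probe sets, Vegfa was at 44.6073 against 15.8 to 19.3 and Fcer1a, a receptor of basophils and mast cells, at 81.1835 against 12.1 to 17.2. In the same mouse Rps10 was at 9038.31 against 10620 to 10870, Herpud1 at 399.094 against 553 to 580, the RNA-binding regulator Zfp36 at 492.792 against 640 to 656, and Ssbp2, at the probe set that was higher, at 249.115 against 340 to 352. NX replicate 2 had Stip1 at 661.957 against 237 to 270, and without that mouse Stip1 was still called lower.

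NX replicate 3 had Hif1a at 1060.36 against 924 to 945, its inhibitor Hif1an at 168.915 against 147 to 150, Bcl11a at 1077.08 against 716 to 763 and the eosinophil peroxidase Epx at 9.47342 against 0.882 to 1.51. NX replicate 4 had S100a8 at 13280.8 against 5026 to 5908 and calreticulin, Calr, at 3504.41 against 2870 to 2917.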

How the results depend on the processing

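The count of higher probe sets (3628) was 555 under the hybridization control scaling, 2089 with a pseudocount of 64, 5638 with array weights, 1663 at an adjusted p under 0.001, 1067 at 4-fold and 781 after Bonferroni adjustment, and the count of lower ones (6282) was 17480, 3660, 6771, 1727, 701 and 77 under the same settings. With 1 array left out, 3207 to 4917 probe sets were higher and 5538 to 7177 lower. Higher calls made up 36.6% of all calls, 26.8% under median centring, 3.08% under the hybridization control scaling, 45.4% with array weights and 45.8% without CH replicate 4. Under quantile normalization the log2 change turned to -0.028 for Fth1, -0.072 for Rps3, -1.16 for S100a8, -1.17 for Pf4, -0.57 for Actb and -0.095 for Jund. Under the hybridization control scaling it turned to -1.04 for Odc1, -0.16 for Pklr, -0.28 for Hk1, -0.46 for Xbp1, -1.56 for S100a8, -1.23 for Pf4, -0.091 for Slc22a6, -1.15 for Ubfd1, -0.46 for Actb, -0.31 for Prf1, -0.30 for Srsf11, -0.59 for Ifi27 and -0.48 for Ncoa2. The cause was not tested. Of 258 named probe sets, 210 kept direction and call under quantile normalization, 198 under the hybridization control scaling and 236 without the 3 arrays that stood apart. This last setting was chosen after seeing the data. With a replicate block 3708 probe sets were higher and 6327 lower and all 258 named probe sets kept their call, but same-numbered mice did not deviate together (correlations of 0.44, -0.20, 0.19 and 0.10), so the numbers do not pair the mice. Probe sets with a signal near the pseudocount of 16 have compressed changes.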
